A study of Mus musculus with 17 samples.

Results

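The plasma cell secretory program was followed in the diaphragm, the dome-shaped breathing muscle, as 10 genes picked by symbol: Jchain, Mzb1, Derl3, Tnfrsf17, Prdm1, Irf4, Xbp1, Pou2af1, Txndc5 and Syvn1. All 10 were found among the 47643 genes of the expression table, and all 10 passed the filter on low values (at least 1 TPM in at least 3 mice). RNA was sequenced from 17 male C57BL/6J mice, 4 months of age. Control mice (n = 5) carried no tumor and received mock injections of PBS with BSA, Control + rFibcd1 mice (n = 5) carried no tumor and received recombinant Fibcd1 in the same vehicle, LLC mice (n = 3) carried tumors and received mock injections, and LLC + rFibcd1 mice (n = 4) carried tumors and received recombinant Fibcd1. LLC are Lewis lung carcinoma cells, a mouse tumor line that was implanted under the skin of both flanks. The protein rFibcd1 is the C-terminal part of mouse Fibcd1, with its fibrinogen-like domain. It resembles the fragment that is cleaved from transmembrane Fibcd1 and secreted, and it was given into the peritoneal cavity in the last week. No mouse carried an engineered allele. The comparisons ask whether the program differs with the tumor, and whether it differs with rFibcd1 in tumor-bearing or in tumor-free mice.

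Plasma cells are the antibody-secreting end stage of B cells. Their identity is set by the transcription factors Irf4, Prdm1 (Blimp-1) and Xbp1, together with the coactivator Pou2af1, and their survival is sustained through the receptor Tnfrsf17 (BCMA). Because they export immunoglobulin at a very high rate, they enlarge the endoplasmic reticulum (ER) with chaperones, disulfide enzymes and a disposal route, ER-associated degradation, that returns misfolded proteins to the cytosol. Xbp1, Txndc5 and Syvn1 serve the ER of nearly every cell, muscle included, whereas Jchain, Pou2af1 and Tnfrsf17 are largely restricted to the B lineage.

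Expression is given as TPM (the share of all transcripts in a sample, scaled to a fixed sum and corrected for gene length, so that levels can be set side by side between genes). Depth recovered from the TPM steps was 50700000 to 54600000 reads per mouse. Mitochondrially encoded transcripts took 41.3% to 50.4% of TPM, with the lowest share in an LLC mouse, and because they are part of the sum the other genes shift with them. The median log2 change of all genes was 0.16 in LLC against Control as deposited and 0.08 with mitochondrial transcripts taken out. It was -0.01 after median-ratio scaling and -0.10 after quantile normalization. Among the genes called in that comparison, 83.2% were higher in LLC as deposited and 64.2% with mitochondrial transcripts taken out. The share was 48.1% after median-ratio scaling and 32.2% after quantile normalization. Myofiber markers identified the tissue as skeletal muscle, with a summed level of 49422 to 63673 TPM over the 17 mice. Liver markers stood out in 1 library, Control + rFibcd1 2, at 3041 TPM against 0.53 to 311 TPM in the other 16 mice.

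The 10 genes differed in how widely they ranged. Between the lowest and the highest of the 17 mice, Jchain differed 980-fold, Pou2af1 269-fold, Derl3 143-fold, Mzb1 46.4-fold, Tnfrsf17 31.3-fold and Irf4 10.3-fold, and these 6 are called wide-ranging here. Prdm1 was intermediate at 6.33-fold. The narrow-ranging genes were the ER genes of wide use, at 2.94-fold for Syvn1, 2.70-fold for Xbp1 and 2.14-fold for Txndc5. They were present in mice with almost no Jchain. Control 5, for example, had 0.460 TPM of Jchain beside 37.7 TPM of Xbp1 and 50.4 TPM of Txndc5.

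**Figure D1:**
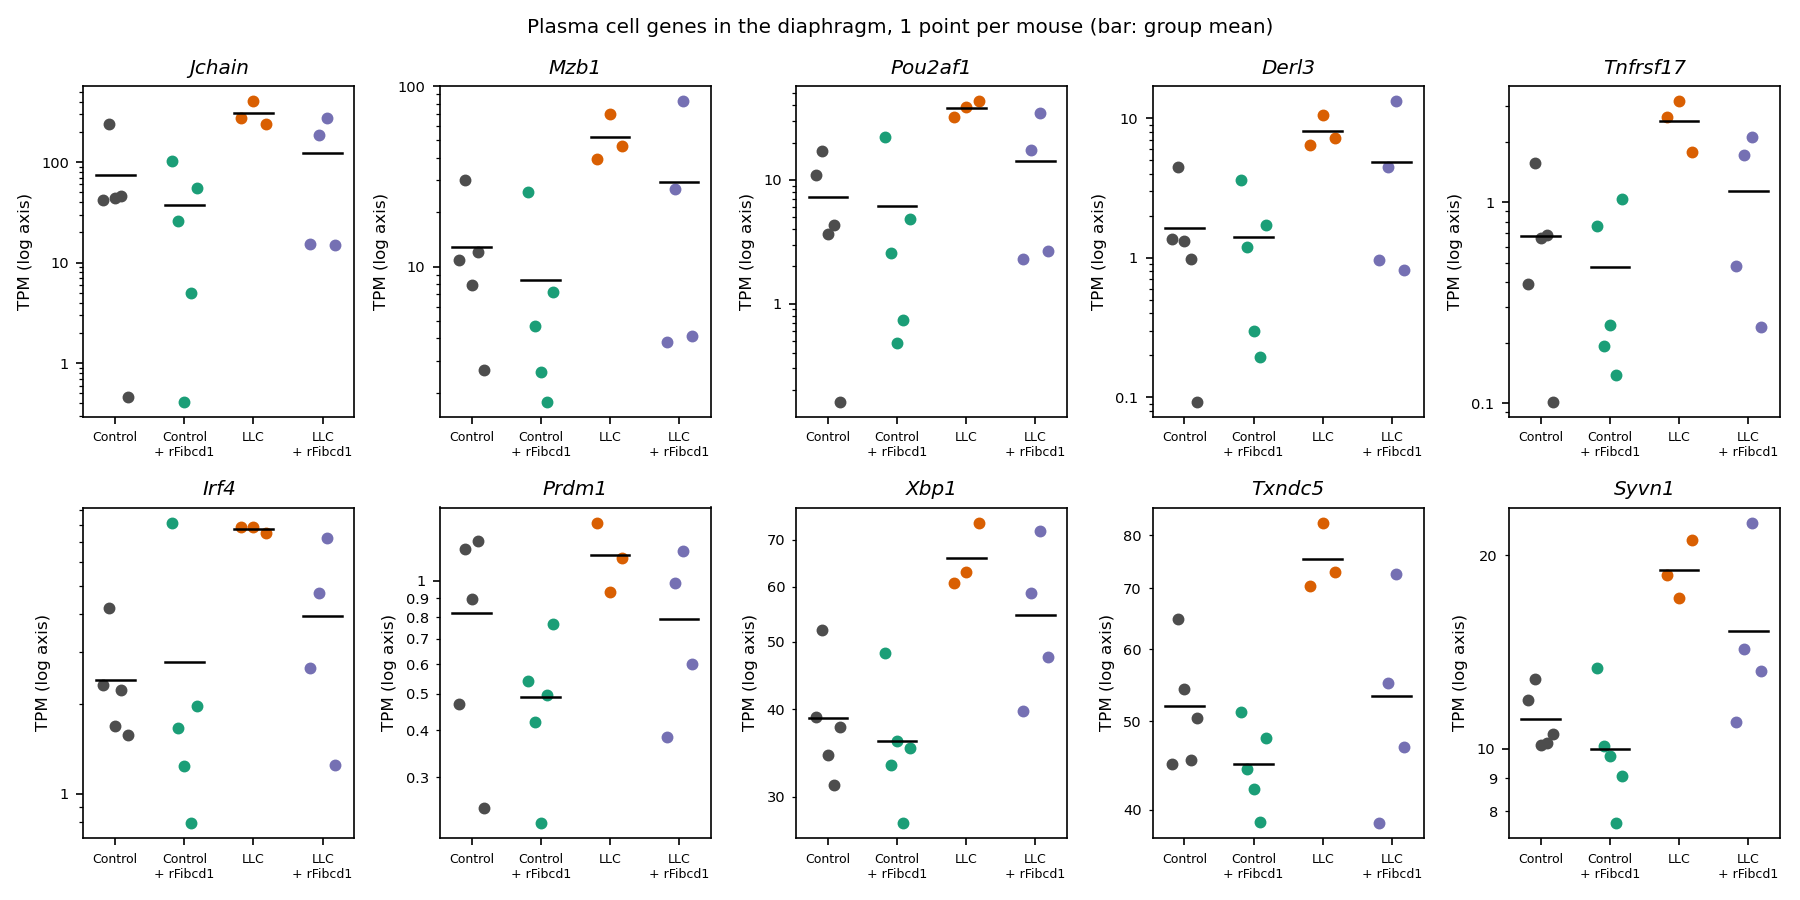
TPM of the 10 genes on log axes, 1 point per mouse, in the 4 groups; the bar is the group mean. The 3 LLC mice lie above all 5 Control mice for every gene except Prdm1, and of the 4 LLC + rFibcd1 mice, mouse 3 reaches the level of LLC for every gene except Irf4, while mice 1 and 4 are the lowest.

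In LLC against Control, all 10 genes had a higher mean in LLC, and 7 of the differences passed the test, those of Jchain, Mzb1 and Prdm1 not. With a limma model over all 13305 genes that passed the filter, 7 of the 10 genes were called (Benjamini-Hochberg adjusted p under 0.05), all of them higher in LLC: Pou2af1, Derl3, Irf4, Tnfrsf17, Xbp1, Syvn1 and Txndc5. Dunn's test, the rank test of the study, called 0 of the 10, with 7 at an unadjusted p under 0.05 and adjusted p values from 0.118 to 0.378. Of all genes tested, limma called 35.8% in this comparison, and the median log2 change was 1.26 over the 10 genes against 0.16 over all genes. The share of all genes called by Dunn's test is not given here, in this or the other comparisons. The 3 LLC mice lay above all 5 Control mice for 9 of the 10 genes, all but Prdm1, and 33.6% of all genes did so. In a bulk sample, the number of plasma cells, the RNA per plasma cell and the RNA of other cells that express these genes cannot be told apart.

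The count of 7 changed when single mice were left out. It fell to 0 without LLC 3, to 2 without LLC 1 or without LLC 2, and to 4 without Control 3, Control 4 or Control 5. The share of all genes called in each fit that left out 1 mouse is not given here, so these counts cannot be set against it. Xbp1 and Syvn1 were each called in 16 of 17 fits that left out 1 mouse, Tnfrsf17 and Txndc5 in 14, Irf4 and Derl3 in 11 and Pou2af1 in 9.

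Jchain encodes the small polypeptide that joins the subunits of IgM and IgA. It measured 275, 405 and 238 TPM in the LLC mice, and 41.9, 237, 44.4, 45.9 and 0.460 TPM in the Control mice. Every LLC mouse was above every Control mouse, although LLC 3 and Control 2 differed by less than 1 TPM. The mean was 306 TPM ± 88.1 (SD, n = 3) in LLC and 74.0 TPM ± 93.3 (SD, n = 5) in Control, a ratio of 4.13. On the log2(TPM + 1) scale the change was 3.24 ± 1.57 (SE), which did not pass the test in limma (adjusted p = 0.114). Jchain thus had the largest log2 change and the largest error of the 10 genes. Its reads ran from 27.9 to 15049 among the Control mice.

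Mzb1 is an ER protein of B and plasma cells that assists the assembly and secretion of IgM. Its level was 39.6, 70.0 and 46.5 TPM in LLC and 10.9, 30.3, 7.94, 12.1 and 2.65 TPM in Control, with no overlap between the groups. The mean ratio was 4.08 and the log2 change 2.23 ± 0.92 (SE), also short of the threshold in limma (adjusted p = 0.0694).

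Among the transcription factors, Pou2af1 (OCA-B), a B-lineage coactivator of the octamer-binding factors, had the largest change that passed the test. It measured 32.3, 38.5 and 43.3 TPM in LLC and 10.99, 17.03, 3.63, 4.34 and 0.161 TPM in Control. The lowest LLC mouse was above the highest Control mouse, and the Control mice themselves covered a 106-fold range. The log2 change was 2.76 ± 1.00 (SE), with an adjusted p of 0.0444 in limma. It was called with quantile normalization, in the fit of only the groups compared and without the trend, and missed with median-ratio scaling (limma, adjusted p = 0.0569), a pseudocount of 0.1 TPM (0.0675), no filter (0.0667), mitochondrial transcripts taken out (0.0648), Dunn's test (0.118) and the replicate number as a block (0.156).

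Irf4, which drives B cells toward the plasma cell state and is also expressed by T cells and myeloid cells, was the most even gene within LLC. The LLC mice measured 7.89, 7.89 and 7.49 TPM, and the Control mice 2.32, 4.21, 1.68, 2.22 and 1.57 TPM. The groups were separate, with a mean ratio of 3.23. The log2 change was 1.41 ± 0.46 (SE) and passed the test in limma (adjusted p = 0.0296).

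Xbp1, the transcription factor activated by Ire1 splicing during ER stress, was abundant in every mouse. Its level was 60.7, 62.9 and 74.1 TPM in LLC against 39.1, 51.9, 34.4, 31.2 and 37.7 TPM in Control. The means were 65.9 TPM ± 7.20 (SD, n = 3) and 38.9 TPM ± 7.94 (SD, n = 5), a ratio of 1.70. Of the 4 factors it changed with the smallest error, by 0.76 ± 0.20 (SE) in log2 units (limma, adjusted p = 0.0136). The table holds 1 value per gene, so spliced and unspliced Xbp1 were not separated.

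Prdm1, the repressor that closes down the B cell program in plasma cells, was the exception. It was low throughout, at 1.43, 0.937 and 1.15 TPM in LLC and 0.471, 1.21, 0.897, 1.28 and 0.249 TPM in Control. The groups overlapped, since Control 2 and Control 4 both exceeded the lower LLC mice. The log2 change of 0.29 ± 0.20 (SE) did not pass the test (limma, adjusted p = 0.268) and was -0.08 after quantile normalization.

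Tnfrsf17 (BCMA), the receptor through which the cytokines April and Baff keep plasma cells alive, was the gene with the fewest reads, between 2.00 and 65.1 per mouse. It measured 2.66, 3.18 and 1.77 TPM in LLC and 0.391, 1.56, 0.666, 0.687 and 0.102 TPM in Control. All 3 LLC mice exceeded all 5 Control mice. The log2 change was 1.11 ± 0.32 (SE) and passed the test in limma (adjusted p = 0.0189). At such levels the pseudocount of 1 TPM shrinks the change, and the ratio of the means was 3.73.

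The 3 genes of ER folding and disposal were all called. Derl3, a derlin of the channel through which misfolded proteins leave the ER, measured 6.45, 10.7 and 7.30 TPM in LLC and 1.37, 4.45, 1.31, 0.988 and 0.0929 TPM in Control. The groups did not overlap, and the mean ratio of 4.95 was close to that of Pou2af1, 5.26. Its log2 change was 1.96 ± 0.64 (SE), with an adjusted p of 0.0295 in limma.

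Txndc5, an ER protein disulfide isomerase, measured 70.4, 82.6 and 72.9 TPM in LLC and 45.0, 64.8, 54.2, 45.4 and 50.4 TPM in Control. Again the groups were separate, but the change was small, 0.54 ± 0.16 (SE) in log2 units (limma, adjusted p = 0.0223) or a ratio of 1.45. After median-ratio scaling, which removes the shift of the median gene, it was not called (limma, adjusted p = 0.0852). On the annotation Txndc5 overlaps Bmp6 on the opposite strand, and whether the counting used strand is not stated in the sources used here.

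Syvn1 (Hrd1), the ubiquitin ligase of ER-associated degradation, measured 18.7, 17.1 and 21.1 TPM in LLC and 11.9, 12.8, 10.1, 10.2 and 10.5 TPM in Control. The 2 groups were well apart, with means of 19.0 TPM ± 1.99 (SD, n = 3) and 11.1 TPM ± 1.19 (SD, n = 5). The log2 change was 0.72 ± 0.18 (SE), with the lowest adjusted p of the 10 genes in limma (0.0132). The study itself drew attention to Syvn1 from these libraries, so it is not independent evidence of the direction of the group. The study reported Syvn1 as raised with LLC and rescued by rFibcd1, with another test and threshold. Here, its log2 change in LLC + rFibcd1 against LLC was -0.34 ± 0.19 (SE, limma, adjusted p = 0.267), which was not called. Syvn1 overlaps Mrpl49 on the opposite strand.

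**Figure D2:**
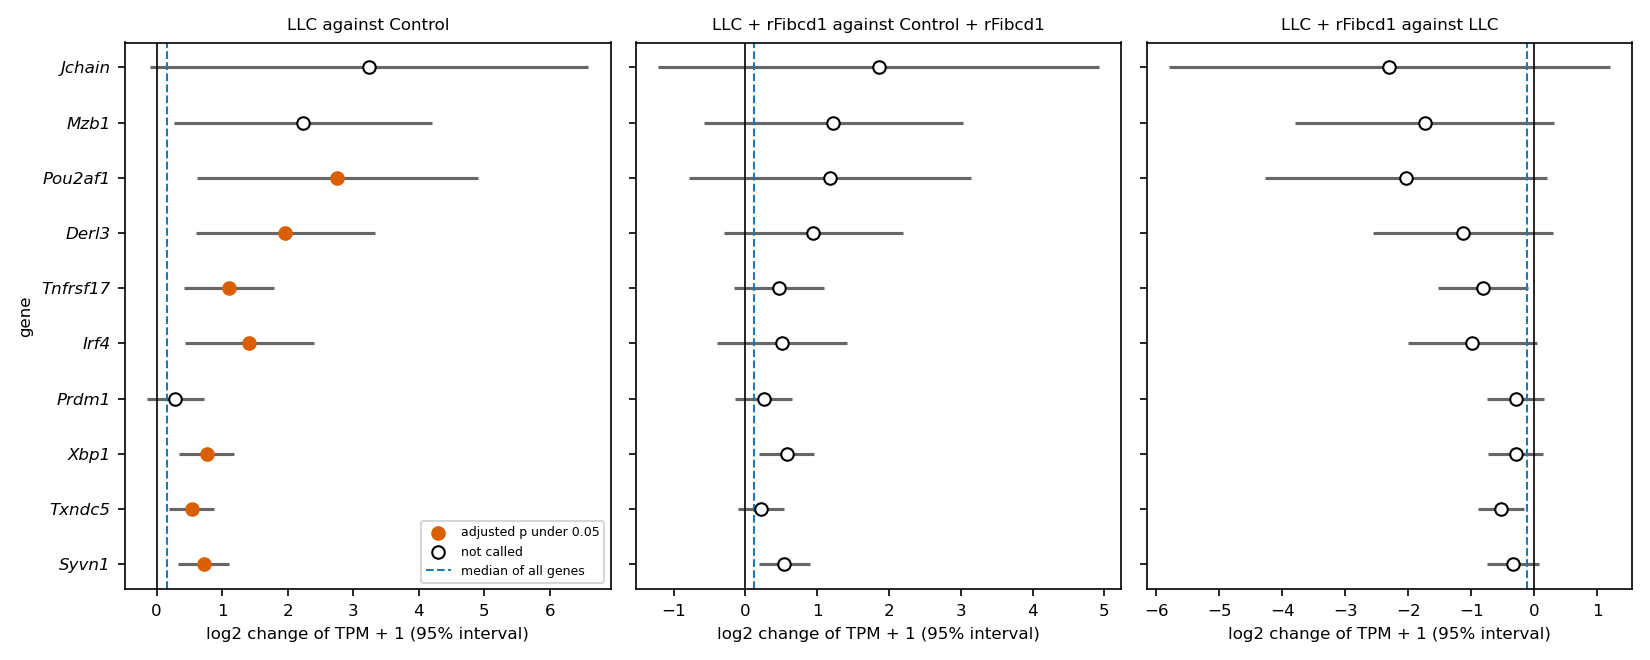
Log2 change of TPM + 1 with its 95% interval for the 10 genes in 3 comparisons; filled points are called at an adjusted p under 0.05, and the dashed line is the median of all genes. In LLC against Control 7 genes are called, from 0.54 for Txndc5 to 2.76 for Pou2af1, whereas none is called in the 2 comparisons that involve LLC + rFibcd1.

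Within the rFibcd1-treated mice the same tumor comparison was weaker in its calls. In LLC + rFibcd1 against Control + rFibcd1, limma called 0 of the 10 genes while 8.06% of all genes were called, and Dunn's test also called 0, with 2 at an unadjusted p under 0.05. At an unadjusted p under 0.05, 2 of the 10 and 3786 of all 13305 genes passed by limma, the 2 being Syvn1 with a log2 change of 0.54 ± 0.17 (SE, adjusted p = 0.0589) and Xbp1 with 0.57 ± 0.18 (SE, adjusted p = 0.0604). All 10 changes were positive, from 0.21 for Txndc5 to 1.85 for Jchain. None of the 10 was higher in every LLC + rFibcd1 mouse than in every Control + rFibcd1 mouse, which 7.43% of all genes were. Leaving out 1 mouse gave 2 calls without Control + rFibcd1 1 or without LLC + rFibcd1 1, and 1 call without Control 2.

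The 4 LLC + rFibcd1 mice did not behave alike. Mice 2 and 3 of this group had Jchain at 185 and 277 TPM, and mice 1 and 4 had 15.4 and 15.1 TPM. Mouse 3 lay within the range of the LLC mice, mouse 2 below every LLC mouse and below Control 2, and mice 1 and 4 below 4 of the 5 Control mice. For all 10 genes LLC + rFibcd1 3 was the highest of the 4, and for all 10 genes mice 1 and 4 were the lowest pair. The libraries differed along the same split. Mitochondrially encoded transcripts took 46.4% and 46.5% of TPM in mice 1 and 4, against 44.2% and 43.7% in mice 2 and 3. Genes at 1 TPM or more numbered 12097 and 12238 in mice 1 and 4, against 12783 and 12730 in mice 2 and 3. The link between these measures and the split was not tested.

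The split recurred across the wide-ranging genes. Mzb1 measured 3.79, 26.8, 82.6 and 4.11 TPM in LLC + rFibcd1 1 to 4, and Pou2af1 2.31, 17.3, 34.5 and 2.67 TPM. Derl3 measured 0.963, 4.45, 13.3 and 0.821 TPM, and Tnfrsf17 0.479, 1.71, 2.09 and 0.240 TPM. LLC + rFibcd1 3 thus held more Mzb1 and Derl3 than any other mouse of the series, and mice 1 and 4 were below the Control median for each of these genes. Irf4 followed with 2.65, 4.73, 7.22 and 1.25 TPM, and Prdm1 with 0.383, 0.988, 1.201 and 0.599 TPM.

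In the ER genes the split was shallower. Xbp1 measured 39.8, 58.8, 72.0 and 47.6 TPM in LLC + rFibcd1 1 to 4, and Syvn1 11.02, 14.3, 22.5 and 13.2 TPM, so that all 4 mice lay above the Control medians of 37.7 and 10.5 TPM. Txndc5 measured 38.7, 55.1, 72.5 and 46.9 TPM, with mice 1 and 4 below the Control median of 50.4 TPM. From the lowest to the highest of the 4 mice the difference was 21.8-fold for Mzb1, 18.4-fold for Jchain, 2.04-fold for Syvn1, 1.88-fold for Txndc5 and 1.81-fold for Xbp1.

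Against LLC, all 10 genes had a lower mean in LLC + rFibcd1, and none passed the test. limma called 0 of 10, with 0.113% of all genes called, and Dunn's test called 0, with 0 at an unadjusted p under 0.05. The unadjusted p was under 0.05 by limma for 3025 of all 13305 genes and for 2 of the 10, Txndc5, with a log2 change of -0.53 ± 0.17 (SE, adjusted p = 0.176), and Tnfrsf17, with -0.82 ± 0.34 (SE, adjusted p = 0.205). Irf4 was the only gene whose groups did not overlap, as its highest LLC + rFibcd1 mouse, at 7.22 TPM, lay just under the lowest LLC mouse, at 7.49 TPM, and 9.3% of all genes were lower without overlap.

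The intervals in LLC + rFibcd1 against LLC were wide. For Jchain the log2 change was -2.30, with a 95% interval from -5.80 to 1.199, and for Pou2af1 -2.04, with an interval from -4.28 to 0.20. For Xbp1 it was -0.30, from -0.73 to 0.14, and for Syvn1 -0.34, from -0.74 to 0.07. The 3 LLC mice enter this comparison and that of LLC against Control, so the changes of the 2 comparisons are not independent.

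In tumor-free mice rFibcd1 gave no call. Jchain measured 102, 26.0, 0.414, 4.97 and 55.8 TPM in Control + rFibcd1 and Pou2af1 22.2, 2.55, 0.484, 0.744 and 4.87 TPM, ranges that covered most of Control. In Control + rFibcd1 against Control limma called 0 of the 10 genes and 0% of all genes, Dunn's test called 0, and 0 of the 10 had an unadjusted p under 0.05, compared with 584 of 13305 genes. All 10 log2 changes were negative, from -0.08 for Irf4 to -0.92 ± 1.36 (SE) for Jchain. Leaving out 1 mouse turned the sign for Irf4 and Derl3.

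The interaction, which tests whether the difference between LLC and Control changes with rFibcd1, was negative for all 10 genes and called for 0 by limma, with 0% of all genes called and 0 of the 10 at an unadjusted p under 0.05, compared with 1142 of 13305 genes. Its log2 value was -1.58, with a 95% interval from -4.48 to 1.33, for Pou2af1, -0.90, from -2.24 to 0.44, for Irf4, and -0.19, from -0.76 to 0.38, for Xbp1. The sign for Prdm1, -0.03, turned after median-ratio scaling and after quantile normalization.

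With both treatments pooled, 7 tumor-bearing mice were set against 10 tumor-free mice. limma called 8 of the 10 genes, all higher in tumor-bearing mice, with 44.8% of all genes called. The lowest adjusted p values were those of Syvn1, with a log2 change of 0.61 ± 0.12 (SE, limma, adjusted p = 0.00291), and Xbp1, with 0.65 ± 0.13 (SE, limma, adjusted p = 0.00298). Both were called in all 17 fits that left out 1 mouse, as was Tnfrsf17. Mzb1, at 1.61 ± 0.62 (SE, limma, adjusted p = 0.0476), was called here but not in LLC against Control, and Jchain and Prdm1 were not called. The count was 3 without LLC 2 or without LLC 3, 4 without LLC 1 and 5 without Control + rFibcd1 3 or without Control + rFibcd1 4, and it was 5 with each of the other scalings (median-ratio, quantile, and TPM recomputed with the mitochondrial transcripts taken out). Of all genes tested, those scalings called 36%, 38.7% and 35.1%, in the same order, against 44.8% as deposited.

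The group means had the order LLC, LLC + rFibcd1, Control, Control + rFibcd1 for 8 of the 10 genes, and LLC had the highest mean for all 10. In Irf4 the tumor-free groups changed places, and in Prdm1 Control, at 0.821 TPM ± 0.452 (SD, n = 5), stood above LLC + rFibcd1, at 0.793 TPM ± 0.370 (SD, n = 4). The range of LLC + rFibcd1 overlapped that of Control for all 10 genes and that of LLC for 9 of 10, all but Irf4. LLC + rFibcd1 was not tested against Control.

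**Figure D3:**
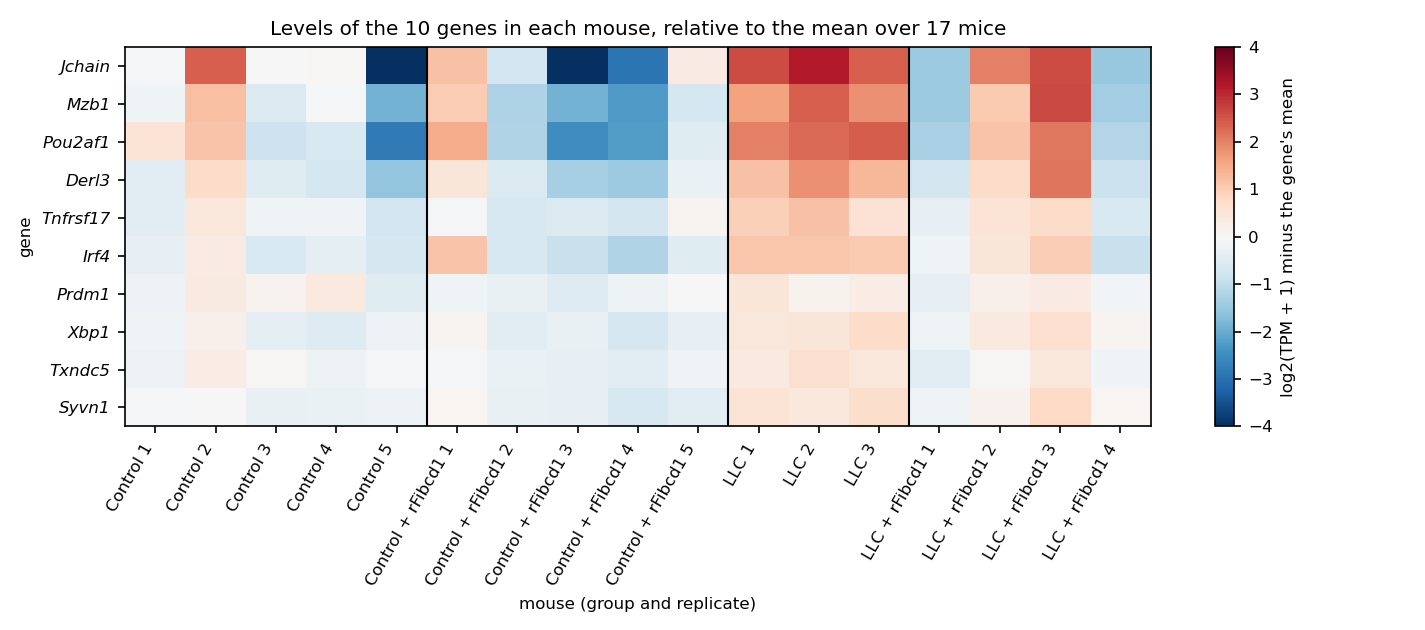
Log2(TPM + 1) of each gene minus its mean over 17 mice, with 1 column per mouse; the colour scale ends at 4 in both directions. Control 2 and Control + rFibcd1 1 are high across the wide-ranging genes, Control 5 and Control + rFibcd1 3 and 4 are low, and LLC + rFibcd1 2 and 3 differ from LLC + rFibcd1 1 and 4.

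The same mice were high or low in gene after gene also without a tumor. Control 2 was the highest of 5 Control mice for 9 of the 10 genes, and Control 5 the lowest for 7. Control + rFibcd1 1 was the highest of its group for 8 genes, and Control + rFibcd1 3 or 4 was the lowest for all 10. Irf4 in Control + rFibcd1 1, at 8.14 TPM, exceeded every LLC mouse.

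To describe how far the genes moved together, each was correlated with Jchain over the 10 tumor-free mice, on the log2(TPM + 1) scale with permutation tests (100000 resamples, two-sided, adjusted over 9 genes). Derl3 had r = 0.92 (permutation p = 0.00026, adjusted p = 0.00117) and rho = 0.88 (permutation p = 0.00189). Pou2af1 had r = 0.91 (permutation p = 0.00018, adjusted p = 0.00117) and rho = 0.90 (permutation p = 0.00077). Mzb1 (r = 0.88), Tnfrsf17 (r = 0.83), Prdm1 (r = 0.77) and Irf4 (r = 0.68) were also below an adjusted p of 0.05, the largest being 0.0445 for Irf4. Their rho was 0.88, 0.92, 0.82 and 0.87, with a largest permutation p of 0.00541 for Prdm1.

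The 3 narrow-ranging genes did not pass over these 10 mice. Txndc5 had r = 0.58 (permutation p = 0.0790, adjusted p = 0.102) and rho = 0.70 (permutation p = 0.0305), Syvn1 r = 0.53 (permutation p = 0.120, adjusted p = 0.135) and rho = 0.50 (permutation p = 0.144), and Xbp1 r = 0.48 (permutation p = 0.161, adjusted p = 0.161) and rho = 0.38 (permutation p = 0.280). Without Control 5 and Control + rFibcd1 3, which are farthest from the median Jchain and hold under 1 TPM of it, r was 0.89 for Xbp1, 0.89 for Txndc5 and 0.84 for Syvn1, while it was 0.53 for Prdm1 and between 0.79 and 0.95 for the other genes. With the mean of each group removed, r over the 10 mice was 0.92 for Derl3 and 0.45 for Xbp1. The 7 tumor-bearing mice formed separate clusters in Jchain, 5 at 185 TPM or more and 2 at 15.4 TPM or less, so no correlation is given for them.

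**Figure D4:**
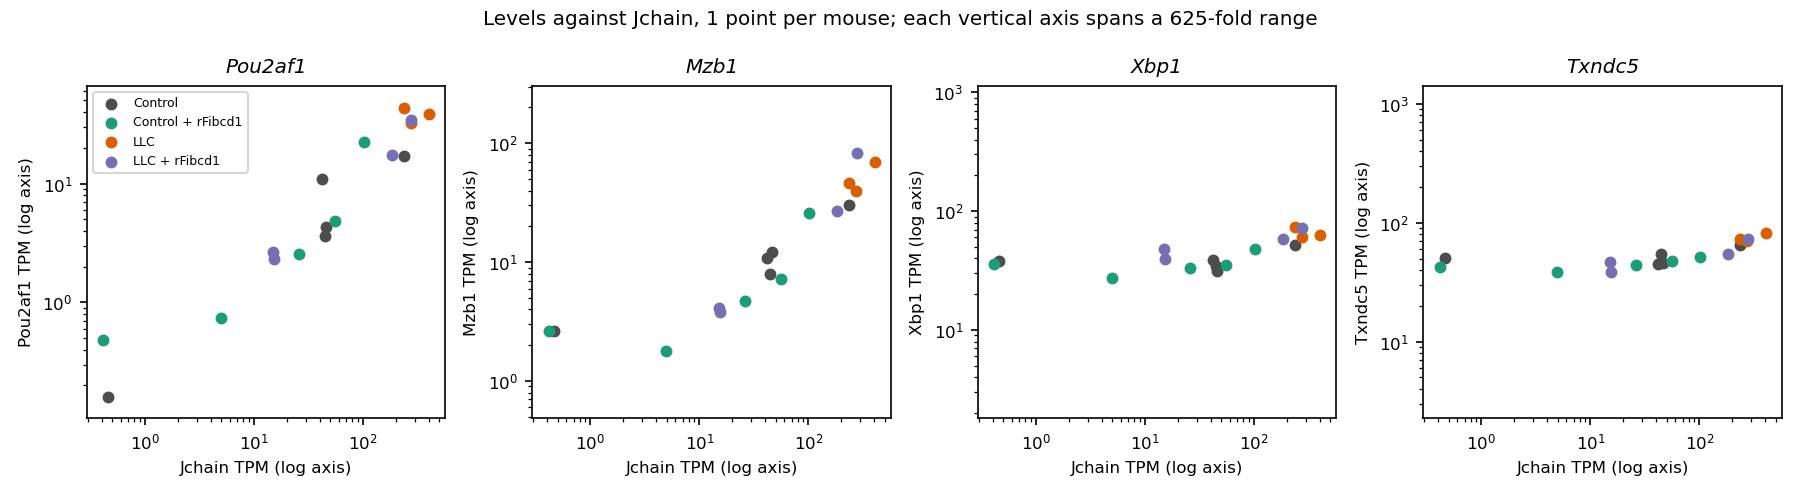
TPM of Pou2af1, Mzb1, Xbp1 and Txndc5 against TPM of Jchain on log axes, 1 point per mouse, coloured by group; each vertical axis covers the same range of fold. Pou2af1 and Mzb1 climb with Jchain over all mice, whereas Xbp1 and Txndc5 stay within a 2.70-fold and a 2.14-fold range.

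By Pearson's r over all 17 mice, given as a description without a test, the genes most like Jchain outside the 10 and the immunoglobulin genes were Cxcl13 (r = 0.96), a chemokine that attracts B cells, Cd79a (r = 0.95), the signalling chain of the B cell receptor, and Timd4 (r = 0.94), a phosphatidylserine receptor of resident macrophages. Those most like Xbp1 were Atf6b (r = 0.99), an ER-anchored relative of Atf6, Ube2d2a (r = 0.98), a ubiquitin-conjugating enzyme, and Rpl8 (r = 0.98), a ribosomal protein. Those most like Syvn1 were Zdhhc18 (r = 0.98), a palmitoyltransferase, Hip1r (r = 0.98), an endocytic adaptor, and Ikbkb (r = 0.97), a kinase of the NF-kappaB pathway. None of the 6 genes most like Xbp1 and Syvn1 is on the list of further plasma cell markers, and the 10 genes and the immunoglobulin genes could not appear. These r values pool groups that differ in level, and the part of the tumor or of the scaling in them was not tested.

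The products that this machinery exports were present in the same samples. The summed level of 12 immunoglobulin constant regions was 7894 to 12925 TPM in LLC and 20.5 to 6534 TPM in Control. In LLC + rFibcd1 it was 591, 5835, 11198 and 479 TPM in mice 1 to 4, and in Control + rFibcd1 it was 47.5 to 3486 TPM. Mice with low Jchain were thus low in immunoglobulin as well. Of 11 constant regions tested in LLC against Control, 4 rose and 7 did not pass, with a median log2 change of 3.21. Of all genes, 29.7% were called higher in LLC and 35.8% in either direction. Ighg2c, an IgG2 heavy chain, rose by 5.32 ± 1.54 (SE, limma, adjusted p = 0.0188), Ighg2b by 4.11 ± 1.196 (SE, limma, adjusted p = 0.0194), Ighd by 2.81 ± 1.02 (SE, limma, adjusted p = 0.0443) and Igha by 2.59 ± 0.69 (SE, limma, adjusted p = 0.0145). Ighd was not called after median-ratio scaling (limma, adjusted p = 0.0567) or with mitochondrial transcripts taken out (limma, adjusted p = 0.0635). Igkc, the kappa light chain and the most abundant of them, averaged 5996 TPM ± 1572 (SD, n = 3) in LLC and 1324 TPM ± 1688 (SD, n = 5) in Control, and did not pass (limma, adjusted p = 0.117). Heavy chains of the IgG subclasses resemble each other, and their reads may be divided between copies.

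Signals for plasma cell survival were also measured. Of 12 ligands and receptors, 7 were tested and 6 rose in LLC against Control, with a median log2 change of 0.89, and 4 rose under each of the 3 other scalings. Tnfrsf13c (Baff receptor) rose by 2.31 ± 0.72 (SE, limma, adjusted p = 0.0247), Tnfrsf13b (Taci) by 1.90 ± 0.56 (SE, limma, adjusted p = 0.0199), Cxcr4 by 1.26 ± 0.42 (SE, limma, adjusted p = 0.0313) and the ligand Tnfsf13 (April) by 0.89 ± 0.27 (SE, limma, adjusted p = 0.0223). Cxcl12, the stromal ligand of Cxcr4, rose by 0.45 ± 0.13 (SE, limma, adjusted p = 0.0185), but was not called under any of the 3 other scalings (limma, adjusted p from 0.0683 to 0.195). The ligand Tnfsf13b (Baff) was under the filter, with means of 0.637 TPM in LLC and 0.436 TPM in Control.

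The shared ER machinery was higher in LLC in the deposited TPM, to an extent that depended on the scaling. Of 19 chaperones and folding enzymes 15 rose and 4 did not pass in LLC against Control, with a median log2 change of 0.56. Ero1lb, an oxidase that recharges disulfide isomerases and is enriched in secretory cells, rose by 1.38 ± 0.40 (SE, limma, adjusted p = 0.0184), Pdia4 by 1.10 ± 0.31 (SE, limma, adjusted p = 0.0169), Sdf2l1 by 1.07 ± 0.34 (SE, limma, adjusted p = 0.0249) and Creld2 by 0.88 ± 0.33 (SE, limma, adjusted p = 0.0488). Calr, calreticulin and the most abundant of the list, rose by 0.58 ± 0.14 (SE, limma, adjusted p = 0.0128). Hspa5 (BiP), the central ER chaperone, averaged 119.5 TPM ± 14.3 (SD, n = 3) in LLC and 97.6 TPM ± 12.7 (SD, n = 5) in Control and did not pass (limma, adjusted p = 0.235). Creld2 was called under none of the 3 other scalings. The count of 15 was 7 after median-ratio scaling, 9 with mitochondrial transcripts taken out and 9 after quantile normalization, settings added for the lists after the data were seen. Of all genes tested, 29.7% were called higher in LLC in TPM as deposited, and 14.3%, 18.2% and 11.3% under those 3 scalings, against which the counts of the other lists stand.

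Entry into the ER behaved similarly. Of 22 genes of the translocon, signal peptidase and N-glycosylation, 18 rose and 4 did not pass, with a median log2 change of 0.35. Sec11c, a catalytic signal peptidase subunit, rose by 1.02 ± 0.25 (SE, limma, adjusted p = 0.0128), Sec61b by 0.76 ± 0.24 (SE, limma, adjusted p = 0.0238), Sec61a1 by 0.69 ± 0.19 (SE, limma, adjusted p = 0.0152) and Ddost by 0.59 ± 0.12 (SE, limma, adjusted p = 0.00996). Srpr, the receptor for the signal recognition particle and the most abundant of the list, had a log2 change of -0.12 ± 0.06 (SE) and did not pass (limma, adjusted p = 0.112). The count of 18 was 8, 13 and 10 under those 3 scalings, each of which called Srpr lower in LLC (limma, adjusted p from 0.0254 to 0.0460).

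Around Syvn1, 9 of 18 partners and other genes of ER-associated degradation rose and 9 did not pass, with a median log2 change of 0.22, close to the 0.16 of all genes. The mannosidase-like proteins Edem1 and Edem2 rose by 1.06 ± 0.33 (SE, limma, adjusted p = 0.0248) and 0.99 ± 0.26 (SE, limma, adjusted p = 0.0151), the lectin Os9 by 0.64 ± 0.16 (SE, limma, adjusted p = 0.0127) and Faf2 by 0.46 ± 0.12 (SE, limma, adjusted p = 0.0152). Vcp, the segregase that pulls substrates out of the membrane and the most abundant of the list, had a log2 change of 0.07 ± 0.04 (SE, limma, adjusted p = 0.161). Derl3 has close relatives in Derl1 and Derl2, named here for that kinship after their values were seen. Derl1 averaged 47.8 TPM ± 3.26 (SD, n = 3) in LLC and 39.3 TPM ± 2.65 (SD, n = 5) in Control, with a log2 change of 0.28 ± 0.10 (SE, limma, adjusted p = 0.0424), and Derl2 changed by 0.29 ± 0.10 (SE, limma, adjusted p = 0.0375), against 1.96 for Derl3. Neither Derl1 nor Derl2 was called under the 3 other scalings, and the sign of Derl2 turned after quantile normalization. Faf2 was not called after quantile normalization (limma, adjusted p = 0.0623). For the list, these scalings called 4, 5 and 4 genes, and after median-ratio scaling its median was 0.02, with 9 of 18 genes above 0.

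Of 10 sensors of the unfolded protein response and genes of its Perk branch, 3 rose and 7 did not pass, with a median log2 change of 0.21. That share is close to the 29.7% of all genes called higher in LLC. Asns rose by 0.98 ± 0.31 (SE, limma, adjusted p = 0.0259), Eif2ak3 (Perk) by 0.48 ± 0.18 (SE, limma, adjusted p = 0.0461) and Atf6 by 0.28 ± 0.08 (SE, limma, adjusted p = 0.0214). Atf4, the most abundant of the list, had a log2 change of 0.04 ± 0.11 (SE) and did not pass (limma, adjusted p = 0.778), and it was negative under the 3 other scalings. Atf6 and Eif2ak3 were called under none of these scalings, and Asns was not called after quantile normalization (limma, adjusted p = 0.0508). The scalings called 1, 1 and 0 genes of the list higher in LLC, called 1 gene lower after median-ratio scaling and after quantile normalization (Ddit3), and turned its median to -0.03 after quantile normalization. In LLC + rFibcd1 against LLC, 0 genes of these lists, which differ in size and partly share members, and 0 of the B cell identity factors were called by limma. Only 0.113% of all genes were called in that comparison.

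**Figure D5:**
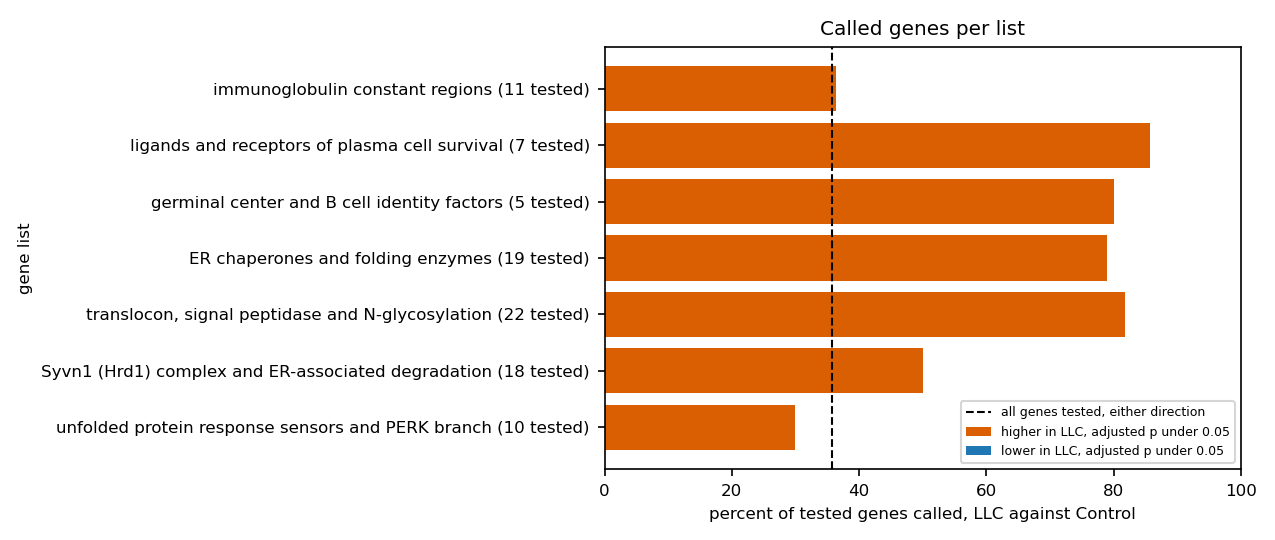
Percent of the tested genes of each list that were called in LLC against Control, with the share of all tested genes called in either direction, 35.8%, as a dashed line. All calls in these lists were higher in LLC and make up 18 of 22 translocon genes and 3 of 10 sensors of the unfolded protein response, in TPM as deposited.

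Markers of other cells moved with the plasma cell genes. All 12 B cell markers rose in LLC against Control, with a median log2 change of 2.51 (9 after median-ratio scaling, 6 with mitochondrial transcripts taken out), led by Cd79a at 3.25 ± 1.17 (SE, limma, adjusted p = 0.0429, and not called under those 2 scalings). Their summed level was 303 to 389 TPM in LLC and 3.17 to 130 TPM in Control, 4.69 to 185 TPM in Control + rFibcd1, and 23.4, 171, 368 and 29.4 TPM in LLC + rFibcd1 1 to 4. No B cell marker was at 0 throughout a group. Of 10 further plasma cell markers, 9 were tested and 7 rose, with a median of 1.02: Tnfrsf13b at 1.90 leads, followed by Slamf7 at 1.28, Fam46c at 1.26 and Sdc1 (CD138) at 1.03 ± 0.29 (SE, limma, adjusted p = 0.0167). Cd93, the most abundant of them and also an endothelial gene, had a log2 change of 0.09 ± 0.11 (SE, limma, adjusted p = 0.555). Their summed level was 97.2 to 115 TPM in LLC and 47.0 to 70.2 TPM in Control.

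All 8 T cell markers rose, with a summed level of 30.1 to 50.6 TPM in LLC and 1.71 to 18.7 TPM in Control, and so did 6 of 8 macrophage markers, with 368 to 452 TPM and 153 to 272 TPM (3 of 8 after median-ratio scaling). Of 5 tested markers of lymph node stroma 3 rose, among them Glycam1, a product of high endothelial venules, at 2.54 ± 0.69 (SE, limma, adjusted p = 0.0159), which averaged 7.63 TPM in LLC and had a median of 0 TPM in both tumor-free groups. Madcam1 was at 0 TPM in every Control + rFibcd1 mouse, and Ccl21a, the most abundant of that list, had a log2 change of -0.10 ± 0.20 (SE) and did not pass (limma, adjusted p = 0.707). Of 2 tested markers of plasmacytoid dendritic cells, which also have a large secretory ER, Irf8 rose and 4 others were under the filter, Siglech among them with means of 0.634 TPM in LLC and 0.619 TPM in Control. None of 5 mesothelial, 5 liver or 4 adipocyte markers was called by limma, with 0, 0 and 2 at an unadjusted p under 0.05, and 4 of 8 myofiber markers fell (2 after quantile normalization). The 4 adipocyte markers had a median log2 change of 1.73 in LLC against Control, and Cfd, the most abundant of them, one of 1.93 ± 0.79 (SE, limma, adjusted p = 0.0663), and was called in tumor-bearing against tumor-free mice at 1.47 ± 0.53 (SE, limma, adjusted p = 0.0357). Their summed level was 991 to 4723 TPM in LLC and 281 to 1571 TPM in Control, where Control 1 and Control 2 were the highest, and it reached 2246 TPM in Control + rFibcd1 1. The part of these cells in the changes of the 10 genes was not tested.

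The promoters of the 10 genes are shown where they hold the motifs through which Xbp1 and Atf6 are known to act, since Xbp1 and ER genes are both among the 10. RefSeq promoter windows on GRCm38.p6, 250 bases before to 50 bases after a start site, were at hand for 9 of the 10 genes in 11 windows, 3 of them for Txndc5. The ER stress response element, CCAAT and CCACG with 9 bases between them on either strand, was found in 39 of 32851 mouse windows (0.119%), and the windows of Syvn1 and Derl3 were among them. The unfolded protein response element, TGACGTGG on either strand, was found in 222 windows (0.676%), and those of Pou2af1 and 1 of 3 for Txndc5 were among them. Below, the 250 bases before the start are given 5′ to 3′ on the strand of the gene, with the match in capitals. Syvn1 is at chr19:6046326-6046575 on the plus strand, Derl3 at chr10:75893148-75893397 on the plus strand, Txndc5 at chr13:38527915-38528164 on the minus strand and Pou2af1 at chr9:51213440-51213689 on the plus strand.
Syvn1: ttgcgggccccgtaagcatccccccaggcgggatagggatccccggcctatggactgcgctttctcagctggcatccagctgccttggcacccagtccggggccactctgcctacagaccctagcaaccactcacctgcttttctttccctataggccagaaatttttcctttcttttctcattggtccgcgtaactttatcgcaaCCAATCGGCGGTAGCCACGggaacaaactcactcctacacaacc
Derl3: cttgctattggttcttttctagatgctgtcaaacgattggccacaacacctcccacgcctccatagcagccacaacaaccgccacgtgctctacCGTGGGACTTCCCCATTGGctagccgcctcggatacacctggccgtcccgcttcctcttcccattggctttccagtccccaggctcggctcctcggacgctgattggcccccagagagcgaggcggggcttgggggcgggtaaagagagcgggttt
Txndc5: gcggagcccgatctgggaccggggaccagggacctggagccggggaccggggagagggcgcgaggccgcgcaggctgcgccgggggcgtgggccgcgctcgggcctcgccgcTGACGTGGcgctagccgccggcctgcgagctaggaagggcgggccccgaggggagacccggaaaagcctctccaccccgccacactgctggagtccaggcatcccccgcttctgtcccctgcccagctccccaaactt
Pou2af1: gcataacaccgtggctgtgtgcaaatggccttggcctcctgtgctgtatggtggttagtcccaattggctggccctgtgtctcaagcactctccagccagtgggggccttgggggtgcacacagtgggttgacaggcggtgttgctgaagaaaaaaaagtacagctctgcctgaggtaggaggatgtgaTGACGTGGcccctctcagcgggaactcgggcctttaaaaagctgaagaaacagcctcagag

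In Syvn1 the element begins 44 bases before the start on the gene's own strand. In Derl3 it begins 156 bases before the start and reads CCAAT to CCACG on the opposite strand. The element of Pou2af1 begins 61 and that of Txndc5 138 bases before the start. Thus the narrow-ranging Syvn1 and Txndc5 and the wide-ranging Derl3 and Pou2af1 each include a match, and the letters do not divide the genes by range. The Prdm1 core GAAAGT, on either strand, occurred in 14.3% of all windows and in those of Tnfrsf17 (2 matches) and Irf4 (1 match that crosses the start). The octamer ATGCAAAT, found in 1.74% of all windows, and the composite of GGAA and GAAA with 2 bases between them, found in 2.72%, occurred in none of the 11 windows. A match describes letters and not binding, and these motifs were chosen with the expression results known.

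The 10 genes are spread over 8 chromosomes. On GRCm38 with GENCODE vM21 they occupy chr5:88519809-88527891 (Jchain), chr18:35647267-35649367 (Mzb1), chr10:75893413-75895941 (Derl3), chr16:11313812-11320074 (Tnfrsf17), chr10:44437177-44528501 (Prdm1), chr13:30749226-30766976 (Irf4), chr11:5520659-5525893 (Xbp1), chr9:51213708-51240080 (Pou2af1), chr13:38500079-38528824 (Txndc5) and chr19:6046576-6053712 (Syvn1). All are annotated as protein-coding. Mzb1 overlaps Spata24 on the same strand, so part of its reads may be shared.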

How the data were processed

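RNA of 17 diaphragms was analysed, with groups and replicate numbers taken from the sample titles. The authors trimmed and filtered paired reads, used CLC Genomics Workbench v12.0.1 to align them to GRCm38 (mm10) and to count them by gene, and the deposited values are TPM, with 1 column per mouse. Strand use in the counting is not given in the sources used here, and these conflict on the library: the labels name a stranded kit, and the study's methods name another kit and another sequencer. This bears on Txndc5 and Syvn1, which overlap genes on the opposite strand. Depth was recovered from the steps of the low TPM values (80.8% to 83.4% within 0.02 of a whole read, with exon lengths of GENCODE vM21), and it entered no test.

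The 13305 genes that reached 1 TPM in 3 or more mice were tested with limma 3.58.1 (R 4.3.3) on log2(TPM + 1), in 1 model of the 4 group means with 13 residual degrees of freedom and an empirical Bayes trend. Tests were two-sided, and p-values were adjusted over all genes by Benjamini-Hochberg, with a threshold of 0.05. limma took the place of the study's rank test with Dunn comparisons, which was kept as an alternative, because the groups are small. Changes on this scale understate those of genes with few TPM. Where nothing beyond separate mice defines a replicate, p-values measure the spread between these mice.

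The 10 genes and all gene lists were chosen with earlier results of these data known. Named genes were the members, up to 4 called genes of each list by size of change with its most abundant gene, and the 3 genes most like Jchain, Xbp1 and Syvn1. The alternatives were another pseudocount, no filter, median-ratio and quantile scaling, rescaling without mitochondrially encoded genes, fits of only the groups compared, no trend, Dunn's test, the replicate number as a block, and leaving out each mouse. The correlation planned for tumor-bearing mice is not given, because their Jchain levels formed separate clusters. No sequence of Mzb1 is printed, and some genes of the lists are not reported by name here.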

Additional observations from a re-analysis of the deposited data

Results flagged for a closer look

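In groups of 4 or 5 mice, 5 of 30 combinations of gene and group held a mouse whose gap to the nearest other mouse exceeded Dixon's 95% critical value relative to the range of the group. Chance gives about 1 in 20, and the 10 genes move together in the same mice, so the combinations are not independent. In Control 2, Jchain stood apart at 237 TPM and Irf4 at 4.21 TPM. In Control + rFibcd1 1, Irf4 stood apart at 8.14 TPM, Pou2af1 at 22.2 TPM and Mzb1 at 25.9 TPM. In every case the mouse was the highest of its group.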

How the results depend on the processing

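Counts of called genes depended on the fit. In LLC against Control, where 7 were called, Dunn's test called 0, the fit with the replicate block called 0 (and 5 of all genes), and leaving out 1 mouse gave 0 to 8, whereas the other planned settings gave 5 to 8. For tumor-bearing against tumor-free mice, where 8 were called, each of the 3 other scalings left 5 (with 35.1% to 38.7% of all genes called), the replicate block left 3, and leaving out 1 mouse gave 3 to 9. In LLC + rFibcd1 against Control + rFibcd1, leaving out 1 mouse gave 0 to 2, and leaving out Control 2 and Control + rFibcd1 1 gave 2. Both mice were picked for their high levels of the 10 genes, which widens the difference by construction, so that fit supports no call. The labels do not say what a replicate number marks. Of 22 same-numbered pairs, 4 had correlated deviations above 0.1, with a range from -0.459 to 0.485. With so few mice per group, this cannot exclude a shared factor in some pairs. Of 1580 alternative values of the 60 member changes, 16 turned sign, none of them called: quantile normalization turned Prdm1 in LLC against Control (-0.07657) and for tumor-bearing against tumor-free mice (-0.01666), and the Prdm1 interaction was 0.01742 with median-ratio and 0.1283 with quantile scaling, and -0.1401 to 0.09288 without 1 mouse. Without 1 mouse, Control + rFibcd1 against Control gave -0.4703 to 0.1171 for Irf4 and -0.3984 to 0.1909 for Derl3. With the replicate block no gene of any list was called in LLC against Control. The causes were not tested. With 3 LLC mice, changes of the wide-ranging genes carry large errors, and Tnfrsf17 rests on as few as 2.00 reads.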

Other observations

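Genes of dividing cells and B cell identity factors also differed with the tumor. Of 7 proliferation genes, 6 were tested and all 6 rose in LLC against Control, led by Mki67 at a log2 change of 1.18 ± 0.35 (SE, limma, adjusted p = 0.02004) and Top2a at 0.84 ± 0.29 (SE, limma, adjusted p = 0.0370), of which Top2a was called under none of the 3 other scalings. The summed level of the 7 genes was 11.5 to 16.9 TPM in LLC and 2.71 to 7.78 TPM in Control, and in LLC + rFibcd1 1 to 4 it was 3.67, 7.37, 19.1 and 5.11 TPM. After quantile normalization 1 of the 6 was called, and after median-ratio scaling 2 of 5 tested. Of 6 germinal center and B cell identity factors, 5 were tested and 4 rose, among them Spib at 2.67 ± 0.94 (SE, limma, adjusted p = 0.0391) and Pax5 at 1.98 ± 0.59 (SE, limma, adjusted p = 0.0217). The count of 4 was 2 after median-ratio scaling (Spib not called, limma, adjusted p = 0.0507), 3 with mitochondrial transcripts taken out and 3 after quantile normalization. Bcl6, the germinal center regulator and the most abundant of them, had a log2 change of -0.04 ± 0.34 (SE, limma, adjusted p = 0.941).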
